A study of Mus musculus with 6 samples.

Results

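Krüppel-like factors are transcription factors that bind GC-rich and CACCC sequences with zinc fingers at the end of the protein, and their more variable remainder recruits activators or repressors. Several of them set the balance between growth and differentiation in the epidermis: Klf4 is required in mice for the skin barrier and is switched on as keratinocytes leave the basal layer, while Klf5 is expressed by the dividing basal cells. Klf2, Klf4 and Klf6 are also induced rapidly by stress and by mechanical stimuli. The 10 genes described here are Klf2, Klf3, Klf4, Klf5, Klf6, Klf7, Klf9, Klf10, Klf13 and Klf15. They were chosen by name, with earlier results of these data known. Each array feature had to carry that symbol alone in the platform annotation, and each of the 10 had 1 such feature. They are 10 of 30142 genes measured. In the order named, they lie on mouse chromosomes 8, 5, 4, 14, 13, 1, 19, 15, 7 and 6.

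Expression was measured in cancer stem cells of skin squamous cell carcinomas on Affymetrix MTA 1.0 arrays, 3 from Sfrp1-/- mice (Sfrp1_KO) and 3 from wild-type mice (WT). Sfrp1 encodes a secreted antagonist of Wnt signalling. All mice of both genotypes had been given DMBA, a mutagen, on postnatal days 23, 25 and 27 and then TPA, a tumour promoter, 2 times a week for 30 to 40 weeks. Sorting kept cells that lacked lineage markers and carried Epcam together with α6 integrin and CD34. Neither the deleted stretch of Sfrp1 nor the cells that lack it are stated in the labels, and they do not tie arrays to animals. The p-values therefore reflect variation among 3 arrays a genotype, part of which may be technical, and precision is limited by that number.

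Values are the deposited log2 signals. They reach 19.93, above the 16 bits of a scanner, so an unstated step stretched or shifted the scale; differences are given in deposited log2 units, Sfrp1_KO minus WT, and not as folds. The background level of an array, the highest of its 23 antigenomic background probe sets, lay between 5.04 and 5.10 on the Sfrp1_KO arrays and between 4.82 and 5.09 on the WT arrays. Sfrp1 itself averaged 5.12 ± 0.03 in Sfrp1_KO and 5.75 ± 0.30 in WT (SD, n = 3 each; limma adjusted p = 0.0969). Of the sort markers, Epcam averaged 5.03 ± 0.17 in Sfrp1_KO, with 1 of 3 arrays above background, and 7.59 ± 1.03 in WT. Itga6 averaged 7.62 ± 0.18 in Sfrp1_KO and 9.51 ± 0.64 in WT, and Cd34 10.99 ± 0.71 in Sfrp1_KO and 9.42 ± 0.15 in WT. The basal keratin Krt5 averaged 6.64 ± 0.30 in Sfrp1_KO and 17.39 ± 0.50 in WT, so the keratinocyte signal itself differed between the genotypes compared below. In these bulk samples, fewer cells of a type and less RNA per cell cannot be told apart.

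Of the 10 Krüppel-like factor genes, Klf2 and Klf9 rose in Sfrp1_KO, Klf5 fell, and 7 did not pass limma's test at an adjusted p of 0.05. Over all 30142 genes 3.28% were called, 1.83% as higher and 1.45% as lower. Among the 10376 genes above background on every array of at least 1 genotype, where 8 of the 10 members lie, 8.75% were called, 4.86% as higher and 3.89% as lower. In 4 of the 10 members the arrays of the genotypes did not overlap, 3 with higher values in Sfrp1_KO (Klf2, Klf4 and Klf9) and 1 with lower values (Klf5). The arrays did not overlap in 19.9% of all genes, 9.1% higher and 10.8% lower, and in 34.2% of the genes above background, 15.8% higher and 18.4% lower. The median difference of the 10 members was 0.02, and that of all genes -0.01. The median size of a difference regardless of sign was 0.48 for the members, 0.23 for the genes above background and 0.10 for all genes. Because the members were chosen with earlier results of these data known, these counts and medians only describe them.

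**Figure D1:**
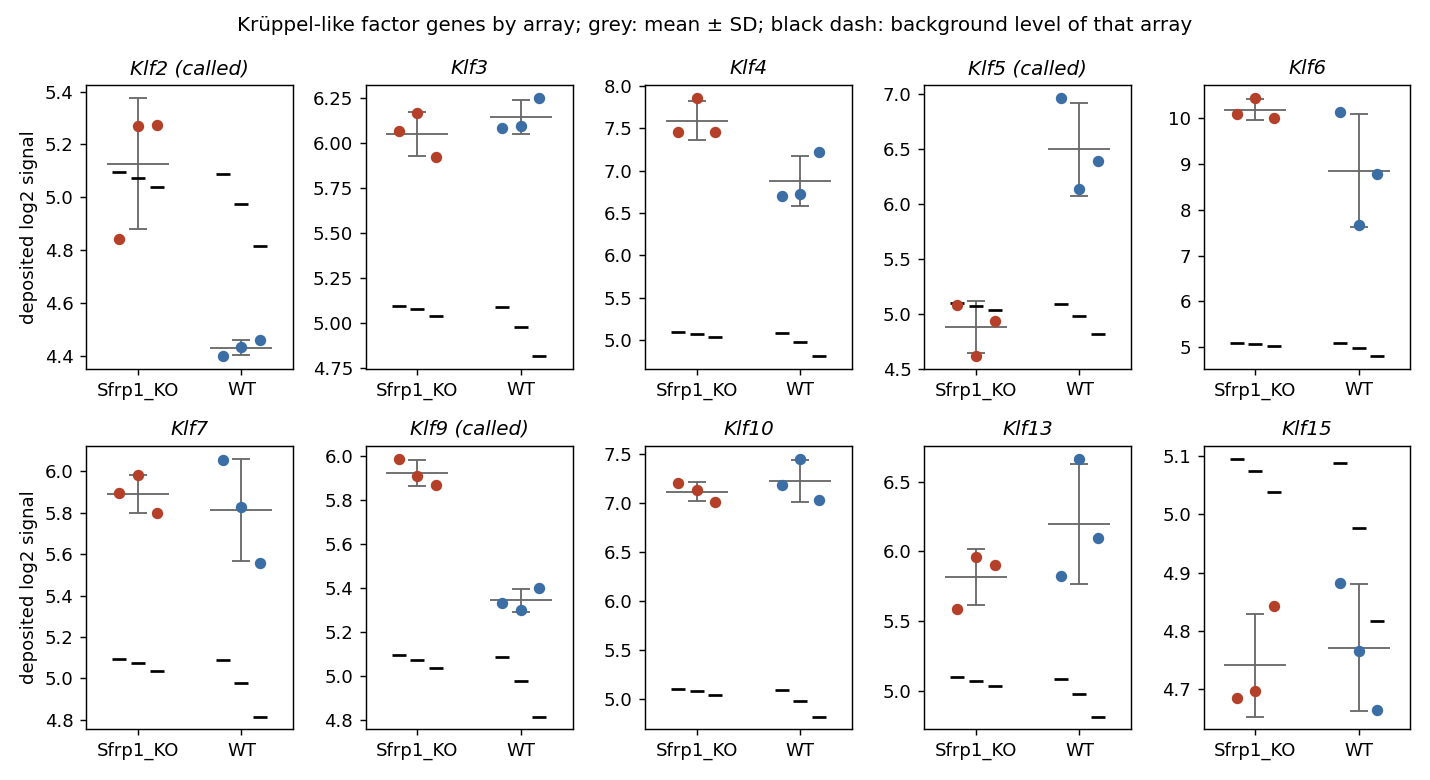
Deposited log2 signal of the 10 Krüppel-like factor genes on each array, Sfrp1_KO left and WT right (points: arrays in the order of their numbers; grey: mean ± SD, n = 3; black dashes: background level of each array; the vertical axis differs between panels and does not start at 0). Klf9 is higher and Klf5 lower on every Sfrp1_KO array, with Klf5 at 4.62 to 5.08 there, under background.

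Among the activators of the family, Klf5, which promotes proliferation of basal epithelial cells, showed the largest called difference. Its signal was 5.08, 4.62 and 4.93 on the Sfrp1_KO arrays, against 6.97, 6.14 and 6.39 on the WT arrays. No Sfrp1_KO array rose above its background level and all WT arrays did, with a gap of over 1 log2 unit between the genotypes. The fitted difference was -1.62 (SE 0.23, 95% CI -2.18 to -1.07, limma adjusted p = 0.0197). Since the Sfrp1_KO values have only an upper bound, Klf5 was lower by at least 1.43, the WT mean minus the mean background level of the Sfrp1_KO arrays. The call ended when any 1 of the Sfrp1_KO arrays was left out (limma adjusted p = 0.0594 to 0.0904) and without WT replicate 3 (0.0598), with differences between -1.73 and -1.49. It also ended without moderation of the variances (limma adjusted p = 0.148).

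Klf4, which drives terminal differentiation of keratinocytes and is a pluripotency factor, went the other way without passing the test. It stood at 7.46, 7.86 and 7.46 on the Sfrp1_KO arrays, against 6.70, 6.72 and 7.22 on the WT arrays. Each Sfrp1_KO array lay above each WT array, with WT replicate 3 closest. The difference was 0.71 (SE 0.18, 95% CI 0.27 to 1.15, limma adjusted p = 0.121). It was not called under any of 13 other settings of the fit, where it ranged from 0.58 to 0.88.

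Klf2, which keeps endothelial cells and lymphocytes quiescent, was measured near the detection limit. Its signal was 4.84, 5.27 and 5.27 on the Sfrp1_KO arrays, against 4.40, 4.43 and 4.46 on the WT arrays. Only Sfrp1_KO replicates 2 and 3 stood above background, and no WT array did. The difference was 0.70 (SE 0.13, 95% CI 0.38 to 1.02, limma adjusted p = 0.0482). With no WT array above background, the WT values have only an upper bound. Taken as the Sfrp1_KO mean minus the mean background level of the WT arrays, Klf2 was higher by at least 0.17. As only 2 of 3 Sfrp1_KO arrays stood above background, the size of the difference is uncertain. The call ended when any 1 array other than Sfrp1_KO replicate 1 was left out (limma adjusted p = 0.118 to 0.186). It also ended with array weights (0.0972), with the replicate number as a block (0.0857) and without moderation of the variances (0.190).

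Because endothelial cells and leukocytes express Klf2, their markers are given beside it. Of 9 endothelial markers, between 0 and 1 stood above background on the Sfrp1_KO arrays and between 0 and 3 on the WT arrays, and none was called; the summed log2 signal of the list was 39.4 to 41.2 in Sfrp1_KO and 38.1 to 42.9 in WT. Cdh5, the cadherin of endothelial junctions, was at 7.15, 6.69 and 4.88 in Sfrp1_KO, against 4.22, 4.36 and 5.16 in WT (limma adjusted p = 0.264, and 0.0337 without Sfrp1_KO replicate 3). Pecam1, Kdr, Tek and Vwf were at or under background on all Sfrp1_KO arrays. Of 14 leukocyte markers, between 1 and 4 stood above background in Sfrp1_KO and 2 on each WT array, and none was called. Their summed signals were 63.8 to 68.9 in Sfrp1_KO and 61.9 to 62.5 in WT. The arrays of the genotypes did not overlap in 8 of the 14, 6 higher and 2 lower in Sfrp1_KO, against 9.1% higher and 10.8% lower among all genes. Among these, Csf1r, Itgam and Cd8a were under background on all arrays. Without Sfrp1_KO replicate 3, 4 leukocyte markers passed as higher (C1qa, C1qb, Laptm5 and Lyz2). S100a8 passed as lower without WT replicate 1 (limma adjusted p = 0.0268). Lyz2, the lysozyme of macrophages, was at 7.94, 6.84 and 5.96 in Sfrp1_KO, against 5.11, 4.69 and 5.02 in WT (limma adjusted p = 0.0941, and 0.0352 without Sfrp1_KO replicate 3), while Ptprc, the leukocyte antigen CD45, was under background on all arrays. The part of these cells in the Klf2 signal was not tested.

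Some markers of stromal cells also differed between the genotypes. Of 8 pericyte and smooth muscle markers, 1 was called: Pdgfrb, the PDGF receptor of pericytes and fibroblasts, was at 8.91, 9.47 and 7.93 in Sfrp1_KO, against 5.11, 4.80 and 5.25 in WT (difference 3.72, SE 0.38, limma adjusted p = 0.00696), and it passed with each array left out in turn. Rgs5, a defining pericyte gene, and Myh11, that of smooth muscle, were under background on all 6 arrays. The summed signal of this list was 39.3 to 41.6 in Sfrp1_KO and 36.9 to 38.8 in WT. On each Sfrp1_KO array 2 markers stood above background, and between 1 and 3 on the WT arrays. The median difference of the list was -0.05. Pdgfrb alone had arrays that did not overlap between the genotypes (1 of 8, against 19.9% of all genes), so the sums do not show a rise of the list as a whole. Of 9 fibroblast markers none was called higher and 1 lower, Fbln1, an extracellular matrix gene, by at least 0.78 (limma adjusted p = 0.00394), with summed signals of 54.6 to 59.1 in Sfrp1_KO and 54.0 to 67.3 in WT. On the Sfrp1_KO arrays 6 of the 9 stood above background, and on the WT arrays 8 to 9. Dcn, the matrix proteoglycan decorin, was at 10.18, 11.16 and 10.11 in Sfrp1_KO, against 6.54, 6.58 and 10.56 in WT. It passed only without WT replicate 3 (difference 3.92, limma adjusted p = 0.0105). In that same fit the fibroblast marker Postn passed as lower (difference -2.28, limma adjusted p = 0.0107). With all arrays Postn was at 6.02, 6.46 and 6.20 in Sfrp1_KO, against 8.27, 8.74 and 11.71 in WT (limma adjusted p = 0.117). Fbln2 passed as lower without WT replicate 1 (limma adjusted p = 0.0268) and after quantile normalization once more (0.0497). None of the adipocyte, skeletal muscle or melanocyte and Schwann cell markers, 6 measured in each list, was called. The part of stromal cells in the values of the Krüppel-like factor genes was not tested.

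Klf6, a growth-restraining factor that is induced by wounding, varied most within a genotype. It was at 10.08, 10.43 and 10.001 on the Sfrp1_KO arrays, against 10.12, 7.65 and 8.78 on the WT arrays. The Sfrp1_KO arrays spanned 0.43 and the WT arrays 2.46, and WT replicate 1 lay among the Sfrp1_KO values, so the genotypes overlapped. The difference of 1.32 (SE 0.57, 95% CI -0.06 to 2.70) did not pass (limma adjusted p = 0.371). Leaving out WT replicate 2 gave 0.72, leaving out WT replicate 1 gave 1.95, and neither passed.

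Genes known to be induced rapidly by tissue dissociation are given beside Klf6. Fos was at 8.70, 9.17 and 9.06 in Sfrp1_KO, against 8.89, 6.50 and 7.40 in WT. Jun was at 9.21, 9.51 and 8.93 in Sfrp1_KO, against 8.40, 5.98 and 7.17 in WT. In both genes, as in Klf6, WT replicate 1 was the highest and WT replicate 2 the lowest of the WT arrays. Of the 15 immediate-early and heat shock genes measured, 10 had this order of the WT arrays (66.7%), against 16.8% of all genes. WT replicate 2 was the lowest in 11 of the 15 (73.3%), against 31.3% of all genes. Both comparisons were added after the data were seen. Egr1, Egr2, Egr3, Ier3 and Nr4a1 did not have the order of Klf6, and Egr1 spanned only 0.14 over the WT arrays. Fosb alone was called, higher in Sfrp1_KO by 4.09 (SE 0.69, limma adjusted p = 0.0334), at 12.02, 12.77 and 11.57 in Sfrp1_KO, against 9.41, 6.62 and 8.07 in WT. The call of Fosb ended when any 1 of the Sfrp1_KO arrays or WT replicate 3 was left out (limma adjusted p = 0.0756 to 0.141), while Fos and Jun passed without WT replicate 1 (0.0358 and 0.0334). The median difference of the list was 0.40. In 8 of the 15 the arrays of the genotypes did not overlap, 7 higher and 1 lower in Sfrp1_KO, against 9.1% higher and 10.8% lower among all genes. Among the higher ones, Egr1 and Jund were under background on all WT arrays. The part of this response in the Klf6 values was not tested.

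**Figure D2:**
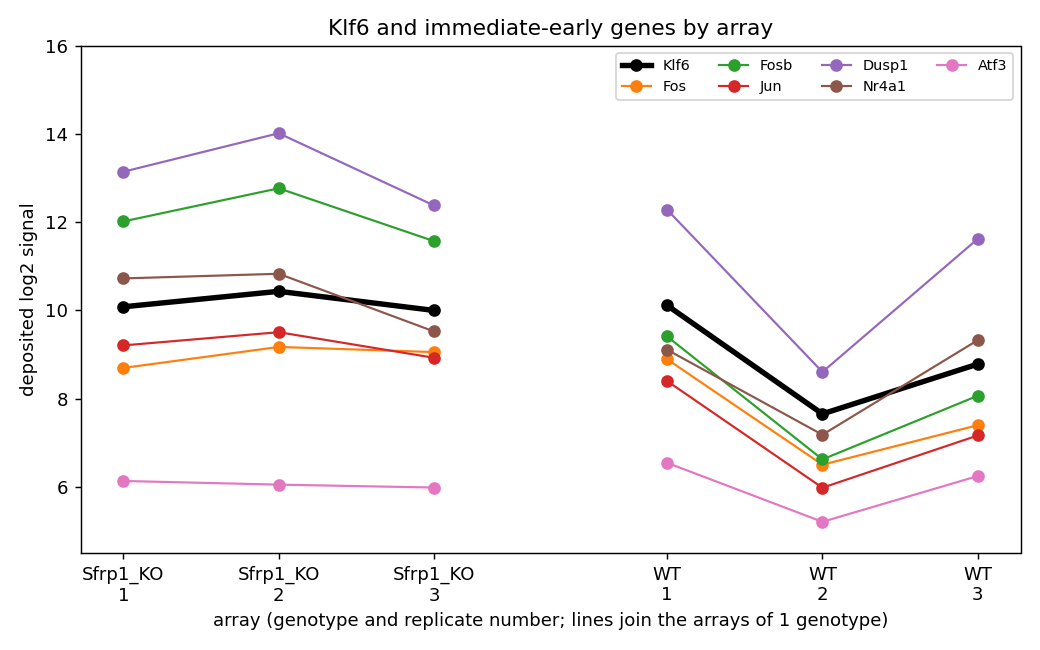
Deposited log2 signal of Klf6 (black) and 6 immediate-early genes on each array, Sfrp1_KO left and WT right; lines join the arrays of 1 genotype only to guide the eye, and the vertical axis does not start at 0. WT replicate 2 is lowest among the WT arrays for each gene shown, with Klf6 at 7.65 and Fosb at 6.62. The genes were chosen with their values known. In Egr1, Egr2, Egr3 and Ier3, which are not shown, WT replicate 2 was not the lowest.

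Klf7, an activator needed for axon growth in neurons, was at 5.90, 5.98 and 5.80 on the Sfrp1_KO arrays, against 6.06, 5.83 and 5.56 on the WT arrays. The genotypes overlapped, and the difference was 0.08 (95% CI -0.25 to 0.41, limma adjusted p = 0.912).

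Of the repressors of the family, Klf3 acts through the corepressor CtBP. It was at 6.07, 6.17 and 5.92 on the Sfrp1_KO arrays, against 6.08, 6.10 and 6.25 on the WT arrays. The ranges overlapped and the interval of the difference was narrow (-0.09, 95% CI -0.33 to 0.14, limma adjusted p = 0.810).

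Klf9, Klf10 and Klf13 share a motif that binds the Sin3 corepressors. Klf9 is induced by glucocorticoids and follows the circadian clock in human keratinocytes, where it restrains proliferation. It was at 5.99, 5.91 and 5.87 on the Sfrp1_KO arrays, against 5.33, 5.30 and 5.40 on the WT arrays. Every array stood above background, and the spans of 0.12 in Sfrp1_KO and 0.10 in WT were small beside the gap between the genotypes. The difference was 0.58 (SE 0.08, 95% CI 0.39 to 0.76, limma adjusted p = 0.0160). The call ended without Sfrp1_KO replicate 1 (limma adjusted p = 0.0799), Sfrp1_KO replicate 2 (0.0794) or WT replicate 2 (0.0525), with differences from 0.55 to 0.59. It also ended with the replicate number as a block (0.0717) and without moderation of the variances (0.0663).

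Klf10, a gene induced by TGF-beta, was at 7.20, 7.13 and 7.02 on the Sfrp1_KO arrays, against 7.19, 7.46 and 7.03 on the WT arrays. These ranges overlapped (difference -0.11, 95% CI -0.41 to 0.20, limma adjusted p = 0.842). Klf13, which activates the chemokine gene Ccl5 in T cells, was at 5.59, 5.96 and 5.90 on the Sfrp1_KO arrays, against 5.83, 6.66 and 6.10 on the WT arrays. WT replicate 1 fell among the Sfrp1_KO values, and the difference of -0.38 did not pass (95% CI -0.92 to 0.16, limma adjusted p = 0.562). Klf15, a regulator of amino acid and glucose metabolism, was under background on all 6 arrays, at 4.68, 4.70 and 4.84 in Sfrp1_KO, against 4.88, 4.77 and 4.66 in WT, so no difference between the genotypes can be given for it.

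**Figure D3:**
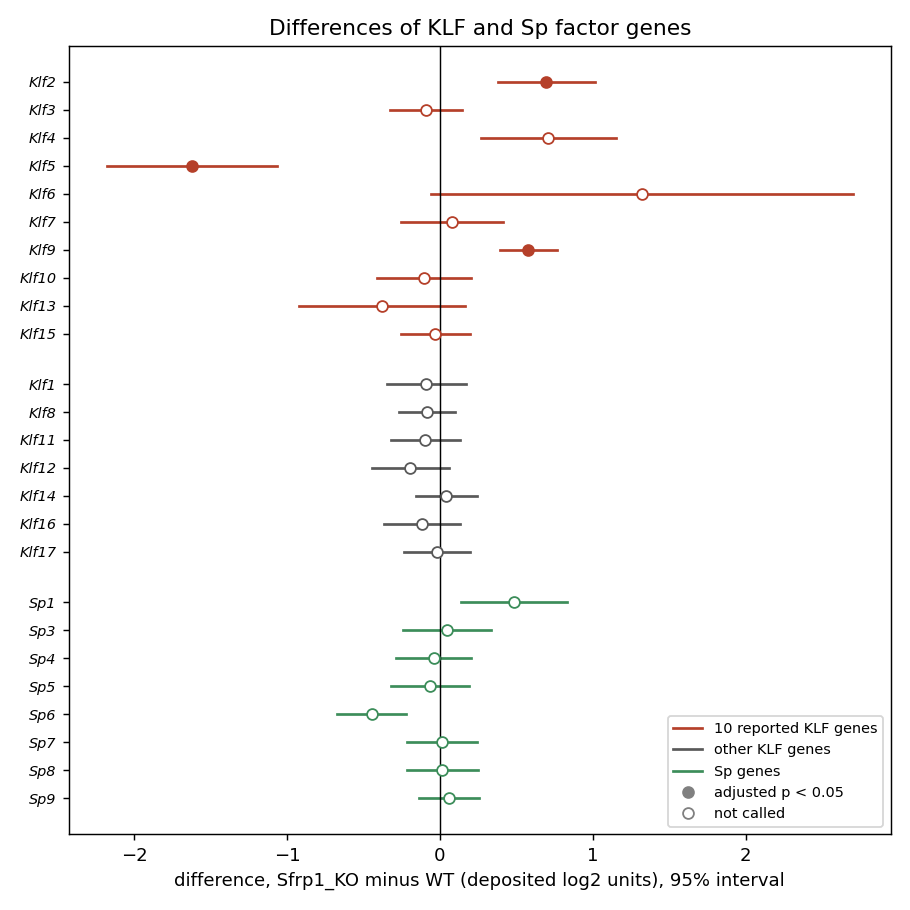
Difference in deposited log2 signal, Sfrp1_KO minus WT, with its 95% interval from limma, for the 10 reported Krüppel-like factor genes, 7 further ones and 8 Sp factor genes (filled: adjusted p under 0.05). The only filled points are Klf2 at 0.70, Klf5 at -1.62 and Klf9 at 0.58. Values of genes under background in either genotype, such as Klf2, Klf5 and Klf15, are shown as fitted.

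The promoters of Klf2, Klf4 and Klf9 are shown because these genes were higher on every Sfrp1_KO array than on any WT array and because the family binds the motifs marked in them. Sequences are from RefSeq (GRCm38.p6), 250 bases before to 50 after the gene start, 5′ to 3′ on the strand of the gene: Klf2 at chr8:72318812-72319111 on the plus strand, Klf4 at chr4:55532426-55532725 on the minus strand and Klf9 at chr19:23140976-23141275 on the plus strand. Capitals mark the motif CACCC, the GC box GGGCGG, the AP-1 motif TGANTCA and the MEF2 consensus, each searched on both strands.
Klf2: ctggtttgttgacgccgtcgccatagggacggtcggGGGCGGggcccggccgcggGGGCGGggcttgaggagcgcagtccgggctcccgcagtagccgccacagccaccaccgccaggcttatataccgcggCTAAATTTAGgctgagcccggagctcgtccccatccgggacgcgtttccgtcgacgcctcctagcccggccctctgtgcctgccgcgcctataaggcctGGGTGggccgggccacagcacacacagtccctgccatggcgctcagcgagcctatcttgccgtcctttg
Klf4: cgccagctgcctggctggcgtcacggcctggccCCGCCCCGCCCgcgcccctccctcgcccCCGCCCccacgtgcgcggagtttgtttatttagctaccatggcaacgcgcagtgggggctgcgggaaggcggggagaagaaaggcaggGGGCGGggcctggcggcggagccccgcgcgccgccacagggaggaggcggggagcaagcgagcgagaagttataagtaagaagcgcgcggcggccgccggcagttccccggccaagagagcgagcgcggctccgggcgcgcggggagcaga
Klf9: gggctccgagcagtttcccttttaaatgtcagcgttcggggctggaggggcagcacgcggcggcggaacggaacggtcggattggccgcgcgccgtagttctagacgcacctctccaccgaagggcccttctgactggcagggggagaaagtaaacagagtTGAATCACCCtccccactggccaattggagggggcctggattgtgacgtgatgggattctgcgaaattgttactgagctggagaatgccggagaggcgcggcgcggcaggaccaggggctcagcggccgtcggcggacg
The Klf2 window holds 2 matches to GGGCGG, 1 to CACCC close to the start and 1 to the MEF2 consensus, the site of factors through which the MEK5-ERK5 kinase pathway induces Klf2 and Klf4. The Klf4 window holds 4 matches to GGGCGG, 2 of which overlap each other, and none to CACCC or the MEF2 consensus. The Klf9 window holds 1 CACCC, overlapping a TGANTCA match by 2 bases, and no GGGCGG. Of the 10 members 8 had a promoter in the table, each with 1 window, and Klf5 and Klf10 were not among them. GGGCGG occurred in 7 of the 8 and CACCC in 6, against 35.7% and 57.5% of 32851 promoter windows, and the median GC content was 70.7% in the 8 windows and 52.7% in all. The MEF2 consensus, TGANTCA and the CArG box, the site of serum response factor, occurred in 1, 1 and 0 of the 8, against 3.19%, 7.81% and 1.63% of all windows. A match is a description of the sequence and does not show binding.

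The other genes of the family and its sister family were less often measurable. Of 7 further Krüppel-like factor genes none was called, and the median difference was -0.09. Klf11 was above background on all arrays, at 5.66 ± 0.09 in Sfrp1_KO and 5.75 ± 0.11 in WT (SD, n = 3 each; limma adjusted p = 0.786), and Klf16 was above it on 2 WT arrays. Klf1, Klf8, Klf12, Klf14 and Klf17 were under background on all 6 arrays. Of 8 Sp factor genes none was called, and Sp1 and Sp3 alone stood above background. Sp1, a general activator at GC boxes, was higher on each Sfrp1_KO array, at 6.89 ± 0.23 in Sfrp1_KO and 6.40 ± 0.16 in WT (difference 0.49, SE 0.14, limma adjusted p = 0.174). Sp3 was at 5.70 ± 0.14 in Sfrp1_KO and 5.66 ± 0.16 in WT. Sp6, Sp4, Sp5, Sp7, Sp8 and Sp9 were under background on all arrays. Under 4 other settings of the fit Sp6 passed as lower (limma adjusted p = 0.0220 to 0.0415), with all its values under background.

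Proteins that act with or on Krüppel-like factors were mostly not called. Of 11 corepressor and coactivator genes, Kat2b, an acetyltransferase, rose in Sfrp1_KO, at 5.98, 6.09 and 5.92 there, against 4.94, 5.16 and 5.11 in WT (difference 0.93, SE 0.09, limma adjusted p = 0.00701), and it passed with each array left out in turn. Ep300, another acetyltransferase that serves as a coactivator of the family, was at 7.50 ± 0.44 in Sfrp1_KO and 6.47 ± 0.10 in WT and did not pass (limma adjusted p = 0.0657), but did with dim genes left out (0.0482). The corepressor genes Ctbp1, Ctbp2, Sin3a and Sin3b were not called, with differences between -0.02 and 0.18. None of 6 ubiquitin ligase genes was called. Wwp1, a ligase known to act on KLF2 and KLF5 proteins, was at 6.31 ± 0.19 in Sfrp1_KO and 6.72 ± 0.21 in WT (limma adjusted p = 0.254).

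Inducers of the family were not called either. Of 7 genes of the MEK5-ERK5-MEF2 pathway, upstream of Klf2 and Klf4, none was called; their median difference was 0.16. Map3k2, a kinase at the head of the pathway, had the smallest p among them, at 6.35 ± 0.13 in Sfrp1_KO and 5.95 ± 0.03 in WT (limma adjusted p = 0.0860). In 3 of the 7 the arrays did not overlap, all higher in Sfrp1_KO, against 9.1% of all genes, and Map3k3 among these was under background throughout. Of 6 genes of the glucocorticoid response, which induces Klf9, none was called, with a median difference of 0.26. Sgk1, a kinase gene of that response, was at 8.39 ± 0.22 in Sfrp1_KO and 7.52 ± 0.30 in WT (difference 0.87, SE 0.18, limma adjusted p = 0.0633). It passed without WT replicate 2 (0.0472), with dim genes left out (0.0476) and with the replicate number as a block (0.0398). The receptor gene Nr3c1 was at 6.14 ± 0.02 in Sfrp1_KO and 5.86 ± 0.08 in WT (limma adjusted p = 0.141). In 4 of the 6 (Sgk1, Nr3c1, Per1 and Tsc22d3) the arrays of the genotypes did not overlap, all higher in Sfrp1_KO, against 9.1% of all genes. None of 15 clock genes was called, and their median difference was 0.01.

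Of 14 genes reported as direct targets of these factors, 5 stood above background on all arrays of at least 1 genotype. Tgfbr1, a TGF-beta receptor and KLF6 target, rose in Sfrp1_KO by 0.42 (SE 0.08, limma adjusted p = 0.0396), and no other target was called. The arrays of the genotypes did not overlap in 6 of the 14, 2 higher and 4 lower in Sfrp1_KO, against 9.1% higher and 10.8% lower among all genes. Among the lower ones, Slc2a4 and Pdgfa were under background on all arrays, and Tagln was above it on 1 WT array alone. The median difference of the 14 targets was -0.10, and the median size regardless of sign was 0.15. The call of Tgfbr1 ended with each array left out in turn (limma adjusted p = 0.0643 to 0.166). The endothelial KLF2 target Nos3 was under background on all arrays, and Thbd, another, was at 6.36 ± 0.13 in Sfrp1_KO and 6.36 ± 0.35 in WT. Cdkn1a, which encodes the cell cycle inhibitor p21 and is activated by KLF4 and KLF6, was at 9.21 ± 1.04 in Sfrp1_KO and 10.26 ± 0.70 in WT (limma adjusted p = 0.515). C1qtnf12, an adipokine gene repressed by KLF3 in mice, was at 5.87 ± 0.08 in Sfrp1_KO and 6.25 ± 0.10 in WT (limma adjusted p = 0.0870, and 0.0357 after quantile normalization once more).

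Of 12 epidermal differentiation and barrier genes, 3 fell in Sfrp1_KO and none rose, with a list median of -1.90. Dsg1a, a desmosomal cadherin, was at 4.46, 4.46 and 4.73 in Sfrp1_KO, against 6.47, 6.56 and 7.77 in WT, lower by at least 1.86 (limma adjusted p = 0.0203). The cornified envelope gene Sprr1b was lower by at least 0.65 (limma adjusted p = 0.00183) and Dsc1, a desmosomal cadherin, by at least 0.31 (limma adjusted p = 0.0448). The Sprr genes resemble each other in sequence, so the Sprr1b signal may hold that of relatives. The call of Dsg1a ended when any 1 of the Sfrp1_KO arrays was left out (limma adjusted p = 0.0575 to 0.101), and that of Dsc1 with each array left out in turn (0.0637 to 0.175). On the Sfrp1_KO arrays between 1 and 2 of the 12 genes stood above background, and on the WT arrays 9. In the same arrays the summed log2 signal of 10 basal keratinocyte markers was 62.8 to 64.3 in Sfrp1_KO and 92.3 to 101.5 in WT. Of these markers 6 fell, among them Trp63, a master regulator of stratified epithelium, by at least 2.16 (limma adjusted p = 0.000196). Over all genes 1.45% were called lower. The count of basal markers called lower was 3 when any 1 of the Sfrp1_KO arrays or WT replicate 2 was left out, since Col17a1, Itga3 and Itga6 no longer passed. It reached 7 without WT replicate 1. Dst went the other way without overlap, at 6.36 ± 0.32 in Sfrp1_KO and 5.71 ± 0.16 in WT (limma adjusted p = 0.139). Itgb1 differed by -0.07 (limma adjusted p = 0.963). The part of the keratinocyte signal in the values of Klf5 and of the barrier genes was not tested.

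Of 7 pluripotency factors that act with Klf2, Klf4 and Klf5 in mouse embryonic stem cells, Sox2 rose in Sfrp1_KO, at 9.52 ± 0.33 there and 7.48 ± 0.65 in WT (SD, n = 3 each; difference 2.04, SE 0.34, limma adjusted p = 0.0316). Its call ended when any 1 array other than WT replicate 3 was left out (limma adjusted p = 0.0659 to 0.129). Myc was at 7.73 ± 0.11 in Sfrp1_KO and 8.46 ± 0.50 in WT and did not pass (limma adjusted p = 0.226). Pou5f1, Nanog, Esrrb, Tfcp2l1 and Lin28a were under background on all 6 arrays.

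**Figure D4:**
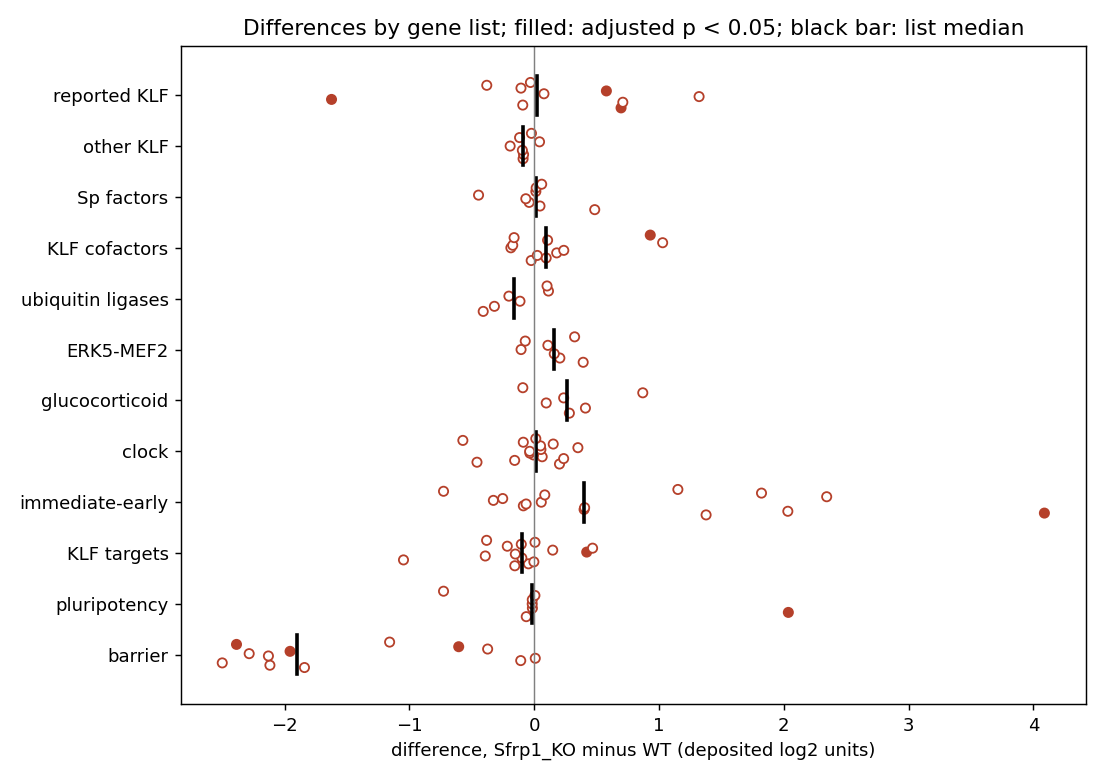
Difference in deposited log2 signal, Sfrp1_KO minus WT, of each measured gene in the 10 Krüppel-like factor genes and 11 related lists (filled: limma adjusted p under 0.05; black bar: list median). The list medians lie between -0.16 and 0.40, except that of the barrier genes at -1.90.

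The genes whose profile over the 6 arrays was closest to that of Klf5 and Klf2, by the root mean square difference of mean-centred values among 7277 and 7278 named genes above background, were the following. For Klf5 they were Galnt6, a glycosyltransferase gene (0.13), Cpne8, a copine gene (0.13), and Enah, an actin regulator (0.17), which were called as lower in Sfrp1_KO (differences -1.73, -1.65 and -1.53). For Klf2 they were Zxdc (0.07), Wdr82, a subunit of a histone methyltransferase complex (0.08), and the phosphodiesterase gene Pde1b (0.08). Their differences were 0.73, 0.68 and 0.71, of which that of Wdr82 did not pass (limma adjusted p = 0.0907). Because these genes were picked by their closeness to the member, similar differences follow from the choice. The Klf2 values matched here lay under background on all WT arrays and on Sfrp1_KO replicate 1.

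**Figure D5:**
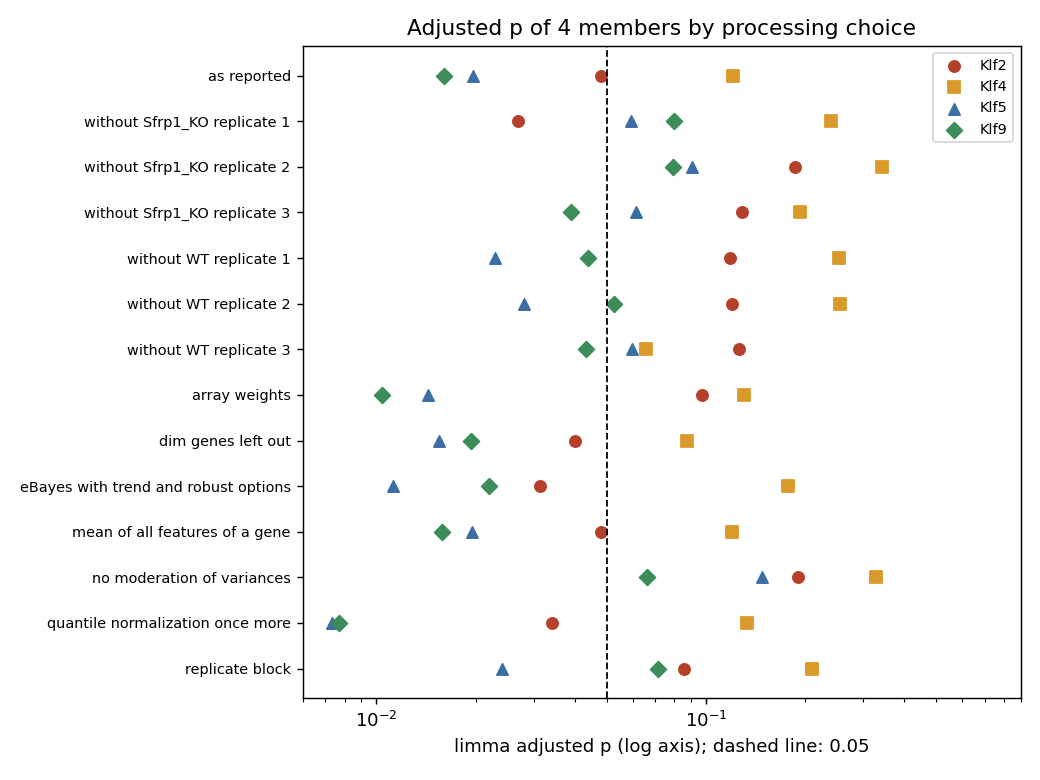
Limma adjusted p (log axis, dashed line at 0.05) of Klf2, Klf4, Klf5 and Klf9 as reported and under 13 other settings. Klf4 lies right of the line in every row, Klf2 left of it in 5 of the 13 and Klf5 and Klf9 in 8 of the 13 each.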

How the data were processed

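Per the submitters' processing notes, the authors ran RMA through Affymetrix Expression Console, and the deposited values are log2 signals per probe set; no source used here gives versions, summarisation level or annotation build. Scanner files were not used here. Of the 72688 features, those with 1 platform symbol were kept, symbols were updated through gene identifiers (RefSeq, GRCm38.p6; 22818 of 30604 matched), and the brightest feature stood for a gene. Genotypes were compared over 30142 genes with limma 3.58.1 in R 4.3.3 (lmFit, eBayes, two-sided, Benjamini-Hochberg adjustment, called at adjusted p under 0.05), a procedure tested on simulated data. A genotype without any array above background contributes only a bound. Arrays sharing a replicate number did not deviate together in every pair. With 3 arrays a genotype this cannot settle whether the numbers pair the samples, and the reported fit did not use them. The members and lists were chosen with earlier results of these data known. Named were all members, the other family genes, Sfrp1, up to 4 genes per list (called ones by size, otherwise those with the smallest p) and the 3 genes most like Klf2 and Klf5; sort markers and further list genes were named after their values were seen. Alternatives were dim genes left out, the replicate number as a block, the mean over a gene's features, a second quantile normalization, array weights, the trend and robust options of eBayes, unmoderated variances, a minimum difference of 1 and each array left out.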

Additional observations from a re-analysis of the deposited data

How the results depend on the processing

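With each array left out in turn, genes called ranged from 191 to 487 higher and from 100 to 407 lower, against 552 and 437 with all arrays, and members called from 0 to 1 higher and from 0 to 1 lower, against 2 and 1; such fits have fewer samples. Without moderation of the variances 14 genes were higher, 21 lower and 0 members called in either direction. Quantile normalization once more called 892 higher and 563 lower. With array weights 1 member was higher, Klf9. Requiring a difference of at least 1 called 295 genes higher and 244 lower, 0 members higher and Klf5 lower. With the replicate number as a block (replicate block) 297 genes were higher and 238 lower, 0 members higher, and Klf5 kept its call. Same-numbered arrays had deviations correlated at 0.18, -0.12 and 0.17 over genes, so the block rests on numbers alone. Members that were not called changed sign near 0. Klf15 was at 0.014 after quantile normalization and between -0.083 and 0.026 with an array left out, Klf10 between -0.204 and 0.011, and Klf7 between -0.049 and 0.199. The other 7 members kept their sign under all alternatives. The median over the 10 members, 0.02, was -0.04 without WT replicate 3. Where fewer samples are not the reason, the cause was not tested. Signal over background limits Klf2, Klf5 and Klf15, which lie at or under it in 1 or both genotypes.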
